A study of Mus musculus with 24 samples.

Results

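The 34 genes described here make sterols and fatty acids or control that synthesis through the sterol regulatory element binding proteins (SREBPs). They were chosen by name, with earlier results of these data known, and all 34 were found among the 38887 genes of the count table. They fall into 3 groups. The sterol branch has 19 genes, from acetoacetyl-CoA to cholesterol plus 1 sterol carrier, the SREBP regulators are 5 genes, and the fatty acid branch has 10 genes. All 34 were also among the 14188 genes with enough counts to be tested, and the lowest count of any of them in any library was 46 reads (Elovl6).

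Dendritic cells are antigen-presenting cells of the immune system, and those studied here were grown from mouse bone marrow. The libraries are labelled by IRE1, the endoplasmic reticulum stress sensor encoded by Ern1, as knockout (KO) or wild type (WT), and by treatment. There were 6 groups of 4 replicates, 24 libraries in all. They were KO with zymosan, KO with LPS, KO untreated, WT with zymosan, WT with LPS and WT untreated. Zymosan is a yeast cell wall preparation, and LPS is the lipopolysaccharide of the outer membrane of Gram-negative bacteria. The labels give no dose, time, age or strain, do not say which promoter or Cre drove the deletion, nor whether each replicate came from its own mouse or culture. The p-values below therefore measure the spread between these libraries, part of which may be technical. In RNA from whole cultures, fewer cells of a type and less RNA per cell cannot be told apart.

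Cells make cholesterol from acetyl-CoA by the mevalonate pathway, which leads through squalene and lanosterol to the late sterol intermediates. Long-chain fatty acids come from the same acetyl-CoA by carboxylation, chain synthesis, elongation and desaturation. When membrane sterol is low, SCAP escorts SREBPs from the endoplasmic reticulum to the Golgi, where proteolysis frees the active transcription factors; INSIG proteins hold SCAP back when sterol is high. SREBP-2, from Srebf2, acts mainly on sterol genes and SREBP-1, from Srebf1, mainly on fatty acid genes. In macrophages and dendritic cells, signals from Toll-like receptors and type I interferon are known to alter both branches.

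Library totals ran between 32223256 and 46927434 counts. Levels below are CPM, read counts divided by each library's total after scaling with TMM, edgeR's factor that equalises the bulk of genes. Differences are log2 values ± standard error (SE) from 1 edgeR quasi-likelihood model of all 24 libraries, with 4 libraries a group, and a gene is called when its Benjamini-Hochberg adjusted p over all 14188 genes is under 0.05. Within groups, replicates 1 and 2 resembled each other, as did replicates 3 and 4: a chi-square statistic per gene between replicates was 1.91 to 8.02 for those 12 pairs and 6.55 to 23.7 for the 24 pairs that cross them. The WT LPS libraries were an exception, where replicates 3 and 4 differed by 8.02 and replicates 2 and 3 by 6.55. Each comparison was therefore also made within replicates 1 and 2, within replicates 3 and 4, and on the sums of these pairs. Ern1 mRNA was higher in the KO-labelled libraries, by 0.31 ± 0.05 with zymosan, 0.46 ± 0.05 with LPS and 0.31 ± 0.05 untreated on the log2 scale. A count over the whole gene does not check the deletion of part of it, so the genotype is given as labelled. The dendritic cell marker Itgax (CD11c) stood at 1025 to 1400 CPM across the 24 libraries, while Cd209a was at or near 0. The 10 dendritic cell markers summed to 6839 to 7298 CPM in KO-labelled and 5703 to 5940 CPM in WT libraries with zymosan, 6562 to 6960 and 5973 to 6534 CPM with LPS, and 5868 to 6061 and 4798 to 4993 CPM untreated, without overlap in any treatment. Of the 9 tested, 5 were called higher and 2 lower in KO-labelled libraries with zymosan, 4 higher and 1 lower with LPS and 4 higher and 1 lower untreated. Flt3, a growth factor receptor of dendritic cell precursors, was 2.01-fold lower in KO-labelled libraries with zymosan, 1.62-fold lower with LPS and 2.21-fold lower untreated.

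The branches differed in how much of the RNA they took up. In untreated WT cells the 10 fatty acid genes summed to 2374, 2415 and 2446 CPM (lowest, median and highest of 4 libraries), and Scd2 and Acly made up most of this. Per kilobase of exon, Scd2 reached 246 CPM per kb and Acly 120 CPM per kb, followed by Mvd at 32.5, Hmgcs1 at 30.3 and Elovl5 at 27.1 CPM per kb. At the other end stood Tm7sf2 with 1.53 and Elovl6 with 1.33 CPM per kb. The 19 sterol genes summed to 1011, 1050 and 1107 CPM and the 5 regulators to 352.1, 358.7 and 365.1 CPM in the same libraries.

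In WT cells the fatty acid sum was lower with either stimulus, and the sterol sum was lower with LPS. With zymosan the fatty acid genes summed to 1391, 1397 and 1473 CPM and with LPS to 995.9, 1027 and 1077 CPM, against the 2374 to 2446 CPM of untreated WT cells. The sterol genes summed to 995.2, 1024 and 1084 CPM with zymosan, which overlapped the untreated range, and to 848.1, 891.1 and 904.3 CPM with LPS, which did not. In KO-labelled libraries the fatty acid genes summed to 1486, 1579 and 1686 CPM with zymosan and 1285, 1354 and 1430 CPM with LPS, against 2375, 2450 and 2559 CPM untreated. The KO-labelled sterol sums overlapped between zymosan and untreated libraries, at 918.0, 967.8 and 994.2 CPM with zymosan, 961.2, 991.5 and 1044 CPM with LPS and 934.3, 966.8 and 980.5 CPM untreated.

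**Figure D1:**
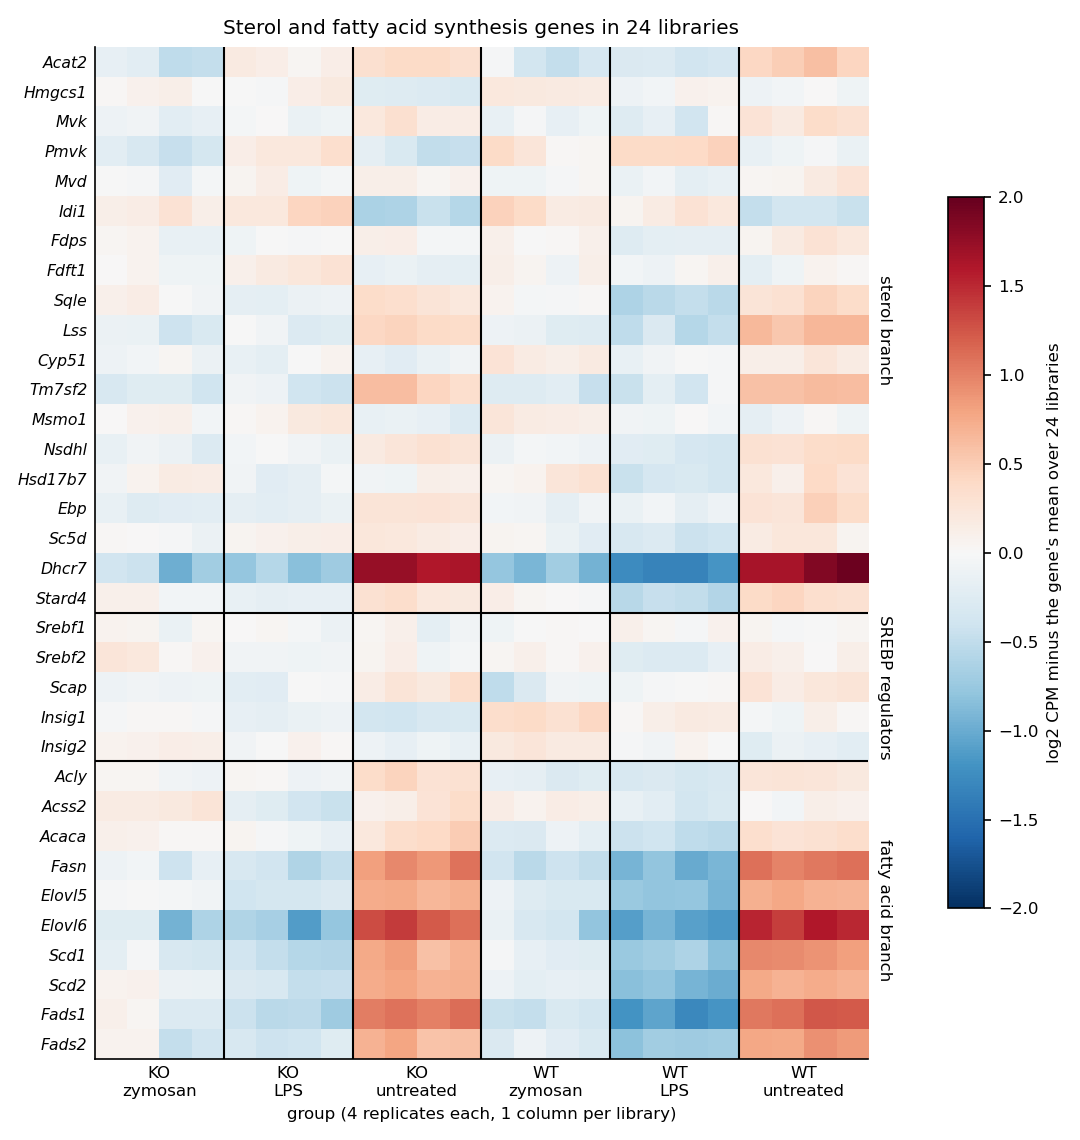
Heat map of the 34 genes (rows) in the 24 libraries (columns), as log2 CPM minus the gene's mean over all libraries, with the sterol branch, the SREBP regulators and the fatty acid branch from top to bottom. Dhcr7 and most fatty acid genes are red in the KO and WT untreated columns and blue in the stimulated ones, Idi1 runs the other way, and the WT LPS columns are the bluest for Fads1, Scd2 and Elovl5.

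With zymosan in WT cells, 0 of the 10 fatty acid genes were called higher and 9 were called lower than in untreated cells, with a median log2 change of -1.01, while the median of all tested genes was -0.01. Of the 19 sterol genes 4 were called higher and 12 lower (median -0.23), and of the 5 regulators 2 were higher and 1 lower (median -0.03). These counts stand against a background in which 34.3% of all tested genes were called higher and 35.9% lower. Falls of more than 2-fold were called in 5 of 10 fatty acid genes and 1 of 19 sterol genes, and in 8.78% of all tested genes. With LPS in WT cells 0 of 10 fatty acid genes were higher and 10 lower (median -1.58), 2 of 19 sterol genes were higher and 14 lower (median -0.47), and 2 of 5 regulators were higher and 2 lower (median 0.04). In that comparison 35.9% of all tested genes were called higher and 39.7% lower, around a median of -0.04. Falls of more than 2-fold with LPS were called in 7 of 10 fatty acid genes, 2 of 19 sterol genes and 13.8% of all tested genes. Both stimulus comparisons use the same 4 untreated WT libraries.

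In KO-labelled cells the counts were of the same kind. With zymosan, 0 fatty acid genes were called higher and 9 of 10 lower (median -0.78), 4 of 19 sterol genes were higher and 11 lower (median -0.21), and 3 of 5 regulators were higher and 1 lower (median 0.12), around a median of -0.03 for all tested genes. The background was 31.6% of all tested genes called higher and 35.2% called lower. Falls of more than 2-fold were called in 3 of 10 fatty acid genes, 1 of 19 sterol genes and 6.05% of all tested genes. With LPS, 0 fatty acid genes were called higher and 10 of 10 lower (median -1.09), 5 of 19 sterol genes were higher and 9 lower (median -0.14), and 2 of 5 regulators were higher and 1 lower (median 0.00), around a median of -0.02 for all tested genes. The background was 34.4% called higher and 37.4% called lower. Falls of more than 2-fold with LPS were called in 7 of 10 fatty acid genes, 1 of 19 sterol genes and 10.9% of all tested genes.

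The share of higher calls depends on the scaling. Taken relative to library totals without TMM, the median of all genes moved by -0.35 with zymosan and -0.38 with LPS in WT cells, and by -0.30 with zymosan and -0.28 with LPS in KO-labelled cells. On that scale 1 member was called higher and 29 lower with zymosan in KO-labelled cells, against 2413 and 8370 of all 14188 genes, and 2 higher and 28 lower with LPS, against 2926 and 7864. In WT cells 1 was higher and 29 lower with zymosan, against 2520 and 8524 of all genes, and 1 higher and 32 lower with LPS, against 2862 and 8648. Idi1 was called higher in each of these comparisons on both scales.

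**Figure D2:**
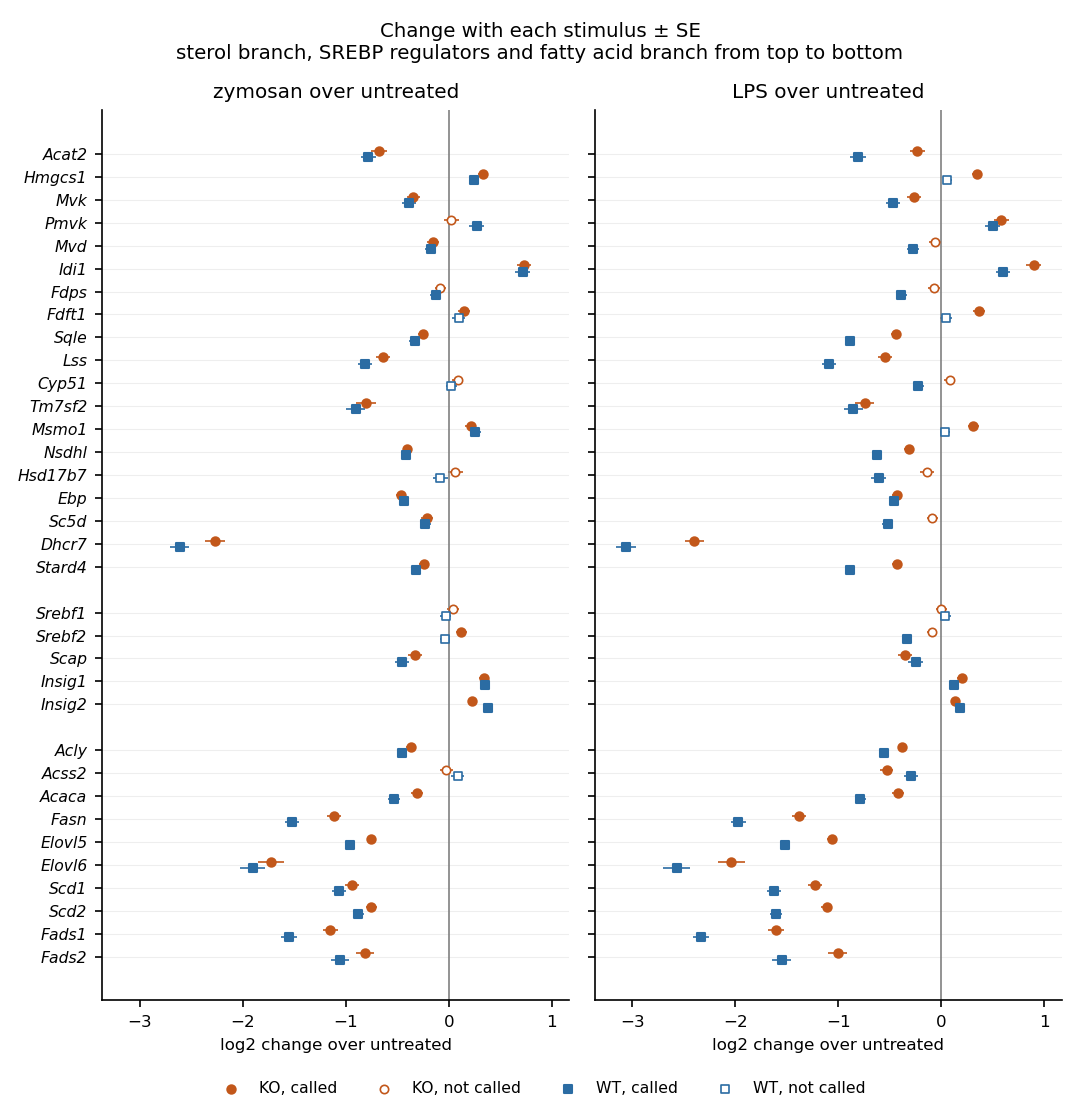
Log2 change ± SE of each member with zymosan over untreated (left panel) and LPS over untreated (right panel), in KO-labelled (orange circles) and WT (blue squares) libraries, 4 libraries a group, with filled symbols for called changes. Dhcr7 lies farthest to the left in both panels, the fatty acid genes other than Acss2 lie left of 0, and the KO symbols of the LPS panel lie closer to 0 than the WT symbols for Fads1, Scd2, Sqle and Stard4; relative to library totals the small positive values of Hmgcs1, Pmvk, Msmo1, Fdft1, Cyp51, Hsd17b7, Acss2, Srebf1, Srebf2, Insig1 and Insig2 turn negative in 1 or more of the 4 comparisons.

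In the fatty acid branch the first steps moved least. Acly, the ATP citrate lyase that makes cytosolic acetyl-CoA from citrate, changed by -0.46 ± 0.04 with zymosan and -0.56 ± 0.04 with LPS in WT cells. Acaca, the acetyl-CoA carboxylase that makes malonyl-CoA, changed by -0.53 ± 0.06 with zymosan and -0.79 ± 0.06 with LPS. Acss2, which makes acetyl-CoA from acetate, was the one member of the branch not called with zymosan, at 0.09 ± 0.06 in WT cells (edgeR adjusted p = 0.235) and -0.02 ± 0.06 in KO-labelled cells (edgeR adjusted p = 0.755), and relative to library totals its WT value turned to -0.26. With LPS, Acss2 was called lower in WT cells by -0.29 ± 0.06 and in KO-labelled cells by -0.53 ± 0.06.

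Fasn (ENSMUSG00000025153, GRCm38 chr11:120805846-120824547, minus strand), the synthase that assembles palmitate, had 48.5, 50.2, 39.0 and 46.2 CPM in KO-labelled zymosan libraries, 41.8, 39.7, 34.4 and 37.4 CPM with LPS and 91.9, 101, 95.2 and 111 CPM untreated. In WT libraries it had 39.8, 35.6, 39.2 and 36.9 CPM with zymosan, 27.3, 30.0, 25.8 and 27.6 CPM with LPS and 112, 104, 108 and 111 CPM untreated. Every stimulated library lay below every untreated one of its genotype. The fall in WT cells was -1.52 ± 0.07 with zymosan, or 2.87-fold, and -1.97 ± 0.07 with LPS, or 3.92-fold (edgeR adjusted p = 7.38e-16 and 3.02e-18).

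Fads1 (ENSMUSG00000010663, chr19:10182888-10196877, plus strand) encodes a front-end desaturase of polyunsaturated fatty acids. It had 20.6, 19.7, 15.8 and 15.9 CPM in KO-labelled zymosan libraries, 14.3, 13.2, 13.4 and 11.8 CPM with LPS and 39.2, 40.9, 38.6 and 41.8 CPM untreated. WT libraries had 14.1, 13.8, 15.6 and 14.9 CPM with zymosan, 8.42, 9.26, 7.84 and 8.46 CPM with LPS and 40.1, 41.0, 45.3 and 45.05 CPM untreated. No values were shared between stimulated and untreated libraries, and the 4 WT LPS libraries were the lowest of all 24. In WT cells Fads1 changed by -1.55 ± 0.08 with zymosan and -2.33 ± 0.08 with LPS (edgeR adjusted p = 1.68e-15 and 6.93e-19). Fads2, the other front-end desaturase, lies beside it on chromosome 19 and changed by -1.05 ± 0.09 and -1.55 ± 0.09.

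Elovl6, the elongase of palmitate-length chains, changed most of the branch in the 4 stimulus comparisons. It had 2.55, 2.55, 1.56 and 1.97 CPM in KO-labelled zymosan libraries, 1.98, 1.90, 1.39 and 1.75 CPM with LPS and 7.43, 7.94, 7.05 and 6.49 CPM untreated. WT libraries had 2.74, 2.40, 2.32 and 1.74 CPM with zymosan, 1.41, 1.58, 1.42 and 1.36 CPM with LPS and 8.67, 7.88, 9.14 and 8.60 CPM untreated. Untreated libraries lay above all stimulated ones in both genotypes, and the stimulated values were low and spread more than those of Fasn. The WT changes were -1.91 ± 0.12 with zymosan and -2.57 ± 0.13 with LPS (edgeR adjusted p = 5.68e-13 and 3.4e-15). Elovl5, which elongates polyunsaturated chains, changed by -0.96 ± 0.04 with zymosan and -1.52 ± 0.05 with LPS.

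Scd2 encodes a stearoyl-CoA desaturase and carried most of the branch's reads in untreated cells. It had 854, 869.9, 748 and 741 CPM in KO-labelled zymosan libraries, 666, 654, 588 and 596 CPM with LPS and 1371, 1404, 1315 and 1330.5 CPM untreated. WT libraries had 761, 714, 729 and 721 CPM with zymosan, 455, 473, 430.0 and 411 CPM with LPS and 1373, 1323, 1361 and 1326 CPM untreated. The untreated libraries of both genotypes shared 1 range, and the WT LPS libraries lay below the KO-labelled LPS libraries without overlap. In WT cells Scd2 changed by -0.88 ± 0.05 with zymosan and -1.60 ± 0.06 with LPS (edgeR adjusted p = 2.73e-13 and 1.03e-18). Its paralog Scd1 changed by -1.07 ± 0.07 and -1.63 ± 0.07. How reads common to both paralogs were counted is not given in the sources used here, so the split between them is uncertain.

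In the sterol branch the largest change was at the end of the pathway. Dhcr7 (ENSMUSG00000058454, chr7:143823145-143848410, plus strand), the reductase of the last step to cholesterol, had 4.32, 4.15, 2.85 and 3.46 CPM in KO-labelled zymosan libraries, 3.28, 3.77, 3.13 and 3.42 CPM with LPS and 18.7, 18.8, 17.0 and 17.4 CPM untreated. WT libraries had 3.28, 2.98, 3.46 and 2.92 CPM with zymosan, 2.34, 2.22, 2.23 and 2.48 CPM with LPS and 17.6, 17.6, 20.2 and 21.7 CPM untreated. The lowest untreated library of either genotype was well above the highest stimulated one. In WT cells Dhcr7 was 6.12-fold lower with zymosan and 8.34-fold lower with LPS, -2.61 ± 0.09 and -3.06 ± 0.10 on the log2 scale (edgeR adjusted p = 4.81e-18 and 2.57e-19). In KO-labelled cells it was 4.82-fold lower with zymosan and 5.28-fold lower with LPS.

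Lss, the lanosterol synthase that closes the sterol rings, had 24.4, 23.9, 19.7 and 21.4 CPM in KO-labelled zymosan libraries, 26.1, 25.2, 21.9 and 22.2 CPM with LPS and 34.998, 36.0, 34.6 and 34.1 CPM untreated. WT libraries had 24.5, 24.2, 22.4 and 22.1 CPM with zymosan, 18.4, 21.7, 17.7 and 18.9 CPM with LPS and 41.3, 38.2, 41.8 and 42.0 CPM untreated. Stimulated and untreated libraries did not overlap in either genotype, and the WT change was -0.81 ± 0.07 with zymosan and -1.09 ± 0.07 with LPS. Tm7sf2, a sterol reductase after lanosterol, had 3.53, 3.75, 3.76 and 3.35 CPM in KO-labelled zymosan libraries, 4.21, 4.12, 3.37 and 3.29 CPM with LPS and 6.78, 6.80, 5.97 and 5.59 CPM untreated. Its WT values were 3.70, 3.68, 3.81 and 3.21 CPM with zymosan, 3.26, 3.88, 3.39 and 4.35 CPM with LPS and 6.64, 6.66, 6.83 and 6.82 CPM untreated, again without overlap between stimulated and untreated libraries, and the WT change was -0.91 ± 0.09 with zymosan and -0.85 ± 0.09 with LPS. Exons of Tm7sf2 overlap those of Vps51 on the same strand, and exons of Lss overlap those of 4930483K19Rik on the other strand, so reads of these pairs may not be fully separated.

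Sqle, the squalene epoxidase, had 93.3, 95.8, 86.0 and 82.0 CPM in KO-labelled zymosan libraries, 76.2, 75.6, 79.7 and 81.0 CPM with LPS and 112, 109, 104 and 99.8 CPM untreated. WT libraries had 91.1, 84.6, 85.1 and 88.3 CPM with zymosan, 56.4, 59.5, 62.2 and 59.4 CPM with LPS and 104, 107, 117 and 112 CPM untreated. The WT LPS libraries were the lowest 4 of the 24, and their highest value was below the lowest KO-labelled LPS value. Sqle changed in WT cells by -0.33 ± 0.05 with zymosan and -0.89 ± 0.05 with LPS (edgeR adjusted p = 1.77e-06 and 2.38e-14). Stard4, a carrier that moves sterol between membranes, had 78.0, 77.7, 69.9 and 70.0 CPM in KO-labelled zymosan libraries, 65.8, 64.3, 64.5 and 65.1 CPM with LPS and 89.2, 92.8, 84.3 and 83.3 CPM untreated. Its WT values were 79.8, 74.3, 73.1 and 71.6 CPM with zymosan, 49.2, 52.6, 51.6 and 48.1 CPM with LPS and 94.5, 97.4, 91.8 and 89.2 CPM untreated, and the WT changes were -0.32 ± 0.05 and -0.89 ± 0.05. As with Sqle, the WT LPS libraries were the lowest 4.

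Acat2, the cytosolic thiolase that makes acetoacetyl-CoA, had 14.4, 14.0, 11.4 and 11.7 CPM in KO-labelled zymosan libraries, 18.2, 17.8, 16.6 and 17.6 CPM with LPS and 20.3, 21.2, 20.997 and 20.2 CPM untreated. WT libraries had 15.96, 12.5, 11.6 and 12.8 CPM with zymosan, 13.2, 13.4, 12.4 and 12.8 CPM with LPS and 21.6, 22.8, 24.6 and 21.7 CPM untreated. In KO-labelled cells the zymosan libraries lay below the LPS libraries without overlap, while in WT cells those groups overlapped. Of the other mevalonate enzymes, Mvk (mevalonate kinase) changed by -0.39 ± 0.07 with zymosan and -0.47 ± 0.07 with LPS in WT cells, Mvd (mevalonate diphosphate decarboxylase) by -0.18 ± 0.06 and -0.27 ± 0.06, and Fdps (farnesyl diphosphate synthase) by -0.13 ± 0.05 and -0.39 ± 0.05. The Fdps change with zymosan is a weak call, with an edgeR adjusted p of 0.0362 that became 0.202 with summed replicate pairs and 0.0634 with DESeq2, and the Mvd change with zymosan had an adjusted p of 0.0863 with summed pairs. After lanosterol, Nsdhl changed by -0.41 ± 0.05 and -0.63 ± 0.05, the isomerase gene Ebp by -0.44 ± 0.05 and -0.46 ± 0.05, and the desaturase gene Sc5d by -0.23 ± 0.05 and -0.52 ± 0.05.

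A few sterol genes ran against the branch. Idi1 (ENSMUSG00000058258, chr13:8885501-8892451, plus strand), the isopentenyl diphosphate isomerase, had 119.7, 122, 135 and 119.8 CPM in KO-labelled zymosan libraries, 128, 127, 148 and 152 CPM with LPS and 71.2, 72.0, 81.3 and 74.2 CPM untreated. WT libraries had 151, 144, 124 and 125 CPM with zymosan, 114, 124, 134 and 128 CPM with LPS and 79.3, 85.5, 85.3 and 81.2 CPM untreated. All stimulated libraries lay above all untreated ones. Idi1 rose by 0.73 ± 0.07 with zymosan and 0.90 ± 0.07 with LPS in KO-labelled cells, and by 0.72 ± 0.07 and 0.60 ± 0.07 in WT cells (edgeR adjusted p = 1.09e-09, 1.55e-11, 1.15e-09 and 2.24e-08). Its exons overlap those of Gm48574 on the other strand.

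Pmvk, the phosphomevalonate kinase, had 23.8, 22.0, 19.9 and 21.6 CPM in KO-labelled zymosan libraries, 30.2, 31.8, 31.7 and 34.6 CPM with LPS and 24.3, 22.2, 19.5 and 19.9 CPM untreated. WT libraries had 35.6, 32.4, 27.9 and 28.3 CPM with zymosan, 35.7, 35.7, 36.2 and 37.6 CPM with LPS and 24.8, 26.0, 27.0 and 24.98 CPM untreated. With LPS it was called higher, by 0.58 ± 0.07 in KO-labelled cells and 0.50 ± 0.07 in WT cells, and relative to library totals the WT value was no longer called, at 0.12. With zymosan it was called higher in WT cells by 0.27 ± 0.07, which turned to -0.08 relative to library totals, and was not called in KO-labelled cells, at 0.02 ± 0.07. Hmgcs1, the HMG-CoA synthase, had 147, 154, 157 and 144 CPM in KO-labelled zymosan libraries, 144, 142, 159 and 165 CPM with LPS and 122, 121, 119 and 117 CPM untreated. WT libraries had 167, 166, 164 and 162 CPM with zymosan, 135, 139, 153 and 152 CPM with LPS and 135, 138, 146 and 137 CPM untreated, so that WT LPS and untreated libraries overlapped while the KO-labelled stimulated and untreated ones did not. Hmgcs1 was called higher in KO-labelled cells with both stimuli and in WT cells with zymosan; relative to library totals the KO values were no longer called, at 0.03 with zymosan and 0.07 with LPS, and the WT zymosan value turned to -0.10.

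Msmo1, a methylsterol oxidase, had 97.8, 103, 105 and 94.0 CPM in KO-labelled zymosan libraries, 99.8, 102, 112 and 114 CPM with LPS and 88.2, 88.9, 87.5 and 80.5 CPM untreated, against WT values of 115, 110.0, 108 and 106 CPM with zymosan, 92.6, 91.7, 97.9 and 93.8 CPM with LPS and 85.8, 91.0, 98.8 and 91.7 CPM untreated. It was called higher with both stimuli in KO-labelled cells and with zymosan in WT cells; relative to library totals both zymosan values turned negative, to -0.09 in each genotype, and the KO LPS value was no longer called. Fdft1, the squalene synthase, had 44.99, 47.2, 42.1 and 42.2 CPM in KO-labelled zymosan libraries, 48.2, 50.4, 52.5 and 54.4 CPM with LPS and 40.0, 40.7, 39.4 and 39.2 CPM untreated. It was called higher in KO-labelled cells, by 0.15 ± 0.06 with zymosan, which turned to -0.15 relative to library totals and had an adjusted p of 0.152 with summed replicate pairs, and by 0.37 ± 0.06 with LPS, which was no longer called relative to library totals. In WT cells Fdft1 had 48.4, 46.4, 41.6 and 48.4 CPM with zymosan, 43.0, 41.8, 45.8 and 47.8 CPM with LPS and 38.9, 41.9, 47.1 and 45.3 CPM untreated and was not called, and its exons overlap those of Ctsb on the other strand.

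Among the regulators, Srebf1, which encodes the SREBP of fatty acid genes, was not called in any of the 4 stimulus comparisons. It had 90.3, 89.0, 78.5 and 88.6 CPM in KO-labelled zymosan libraries, 86.3, 87.7, 83.8 and 79.3 CPM with LPS and 88.4, 92.3, 74.8 and 81.4 CPM untreated. WT libraries had 80.5, 85.1, 86.7 and 86.5 CPM with zymosan, 92.0, 88.1, 84.3 and 91.3 CPM with LPS and 88.7, 84.0, 85.0 and 88.5 CPM untreated. All 6 groups overlapped. Relative to library totals the Srebf1 changes were -0.26 with zymosan and -0.28 with LPS in KO-labelled cells and -0.38 and -0.34 in WT cells, beside medians over all tested genes of -0.33 and -0.30 in KO-labelled and -0.365 and -0.42 in WT cells. The count covers the whole gene, so its SREBP-1a and SREBP-1c transcripts are not told apart.

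Srebf2 (ENSMUSG00000022463, chr15:82147181-82205379, plus strand) had 185, 181, 158 and 166 CPM in KO-labelled zymosan libraries, 149, 149.6, 147 and 149 CPM with LPS and 163, 171, 148 and 153 CPM untreated. WT libraries had 160.2, 167, 159.7 and 166 CPM with zymosan, 133, 129, 129 and 140.0 CPM with LPS and 174, 169, 157 and 169 CPM untreated. The WT LPS libraries lay below the other WT libraries without overlap, and the fall was -0.33 ± 0.05 (edgeR adjusted p = 1.14e-06). In KO-labelled cells the LPS value of -0.09 ± 0.05 was not called (edgeR adjusted p = 0.0875), and it was called without KO-labelled untreated replicate 3, at -0.13 (0.029). With zymosan Srebf2 was called higher in KO-labelled cells by 0.12 ± 0.05 (edgeR adjusted p = 0.0301), a call that turned to -0.18 relative to library totals and was lost in 4 of the 8 fits that leave out 1 KO-labelled zymosan or untreated library (adjusted p 0.086 to 0.135: KO-labelled zymosan replicate 1 or 2, or KO-labelled untreated replicate 3 or 4).

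Scap, the escort of the SREBPs, had 15.8, 16.1, 15.7 and 16.01 CPM in KO-labelled zymosan libraries, 14.6, 14.5, 16.8 and 16.7 CPM with LPS and 18.7, 20.3, 19.3 and 21.5 CPM untreated, against 11.9, 13.8, 16.03 and 15.9 CPM with zymosan, 15.9, 16.7, 16.8 and 17.2 CPM with LPS and 20.5, 18.8, 19.9 and 20.1 CPM untreated in WT libraries. It was called lower by -0.33 ± 0.07 with zymosan and -0.35 ± 0.07 with LPS in KO-labelled cells and by -0.46 ± 0.07 and -0.25 ± 0.07 in WT cells. Insig1 and Insig2, which retain SCAP in the endoplasmic reticulum, were called higher with both stimuli in both genotypes on the TMM scale, Insig1 by 0.34 ± 0.04 with zymosan and 0.20 ± 0.04 with LPS in KO-labelled cells and by 0.35 ± 0.04 and 0.12 ± 0.04 in WT cells (edgeR adjusted p = 0.0152 for the last). Relative to library totals its LPS values turned to -0.08 in KO-labelled and -0.26 in WT cells and its zymosan values were 0.04 and 0.00. The WT LPS call of Insig1 was also lost with summed replicate pairs (adjusted p 0.11) and with no filter on low counts (0.0713). Insig2 had 38.2, 38.6, 39.6 and 39.3 CPM in KO-labelled zymosan libraries, 34.7, 36.1, 38.4 and 36.7 CPM with LPS and 33.7, 32.5, 34.2 and 32.6 CPM untreated, and 41.6, 42.8, 41.0 and 41.2 CPM with zymosan, 35.8, 34.6, 38.2 and 36.1 CPM with LPS and 30.5, 33.4, 32.5 and 31.3 CPM untreated in WT libraries. Relative to library totals its changes turned negative with LPS in both genotypes, to -0.145 in KO-labelled and -0.20 in WT cells, and with zymosan in KO-labelled cells, to -0.07, and its KO LPS call was lost with summed pairs (adjusted p 0.0625).

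Zymosan and LPS were also compared directly. In WT cells, 9 of 10 fatty acid genes, 11 of 19 sterol genes and 3 of 5 regulators were called higher with zymosan than with LPS, against 24.5% of all tested genes. None of the fatty acid genes, 1 sterol gene (Pmvk) and 1 regulator (Scap) were called lower, against 21.9% of all tested genes, and both of these calls were lost with summed replicate pairs, where 1979 of 15378 genes were called lower. The median difference was 0.53 for the fatty acid genes, 0.21 for the sterol genes and 0.02 for all tested genes. In KO-labelled cells 6 of 10 fatty acid genes, 3 of 19 sterol genes and 2 of 5 regulators were higher with zymosan than with LPS, against 22.7% of all tested genes, and 0, 3 and 0 were lower, against 20.0% of all tested genes. There the median difference was 0.30 for the fatty acid genes, -0.08 for the sterol genes and 0.00 for all tested genes.

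Fads1 differed most between the stimuli among the fatty acid genes of WT cells, by 0.78 ± 0.08 (edgeR adjusted p = 3.38e-08), followed by Scd2 with 0.72 ± 0.05 (edgeR adjusted p = 1.17e-10) and Elovl6 with 0.66 ± 0.15. Acss2 differed by 0.51 ± 0.06 in KO-labelled cells and 0.38 ± 0.06 in WT cells. Its values were 40.1, 39.8, 40.9 and 42.7 CPM in KO-labelled zymosan libraries and 31.7, 30.0, 27.3 and 26.1 CPM in KO-labelled LPS libraries, against 39.5, 37.6, 39.5 and 38.9 CPM in WT zymosan libraries and 32.3, 30.7, 27.7 and 28.8 CPM in WT LPS libraries, with no overlap in either genotype. In the sterol branch of WT cells Stard4 differed by 0.57 ± 0.05, Sqle by 0.56 ± 0.05 and Hsd17b7, a late-pathway ketosteroid reductase, by 0.53 ± 0.07. In KO-labelled cells Pmvk and Acat2 were lower with zymosan than with LPS, by -0.56 ± 0.07 and -0.45 ± 0.08 (edgeR adjusted p = 1.27e-06 and 5.42e-05).

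Promoter sequence was available for 27 of the 34 genes, as the bases before RefSeq gene starts on GRCm38.p6, with 35 starts in all; the other 7 are Stard4, Sqle, Fdps, Fdft1, Scd1, Scd2 and Fads1. In the 250 bases before each start, on both strands, 3 motifs were searched: the sterol regulatory element TCACNCCAC with its shorter form TCACNCCA, which contains every match of the longer one and was chosen after the longer had been searched; the NF-Y box CCAAT; and the Sp1 box GGGCGG. TCACNCCAC was found in 1 of 15 sterol genes (Hmgcs1), 0 of 5 regulators and 0 of 7 fatty acid genes, and in 1.22% of all 27025 genes with a start. TCACNCCA was found in 2 of 15 sterol genes (Hmgcs1 and Msmo1), 1 of 5 regulators (Srebf2) and 0 of 7 fatty acid genes, and in 4.2% of all genes. CCAAT was found in 14 of 15 sterol genes, 4 of 5 regulators and 3 of 7 fatty acid genes, and in 37.5% of all genes. GGGCGG was found in 14 of 15, 5 of 5 and 3 of 7, and in 35.4% of all genes. A gene was counted if any of its starts held the motif. The 27025 genes include some that were not among the 14188 tested, and shares of the tested genes alone were not taken. A match describes letters in this window and no binding was measured. For 29 of the 35 starts, the bases that follow were found near the beginning of a GENCODE M21 transcript of the gene. For Hmgcs1 and Lss they were not, so these 2 starts are not matched to that annotation.

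The stretches below are shown because they set Hmgcs1, with the full sterol regulatory element, and Srebf2, with the shorter form, beside genes with neither in the window: Fasn and Lss, which fell, and Insig1. They are reference sequence of the gene's own strand, 5′ to 3′, and end where the first annotated exon begins, except that of Hmgcs1, which ends short of it; capitals mark TCACNCCAC, TCACNCCA or CCAAT on the given strand or, as ATTGG, on the opposite strand. Hmgcs1 is chr13:119690101-119690350 (plus), Srebf2 chr15:82147019-82147180 (plus), Fasn chr11:120824548-120824797 (minus), Lss chr10:76531355-76531587 (plus) and Insig1 chr5:28071162-28071362 (plus).
Hmgcs1: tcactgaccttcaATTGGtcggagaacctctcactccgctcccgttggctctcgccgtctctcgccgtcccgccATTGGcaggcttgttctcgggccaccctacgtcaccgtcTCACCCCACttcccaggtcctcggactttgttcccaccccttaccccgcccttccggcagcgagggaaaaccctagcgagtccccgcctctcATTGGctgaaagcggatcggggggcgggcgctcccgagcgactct
Srebf2: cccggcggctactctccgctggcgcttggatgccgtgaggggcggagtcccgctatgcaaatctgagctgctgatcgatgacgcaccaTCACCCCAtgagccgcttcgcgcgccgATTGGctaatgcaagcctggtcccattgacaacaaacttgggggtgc
Fasn: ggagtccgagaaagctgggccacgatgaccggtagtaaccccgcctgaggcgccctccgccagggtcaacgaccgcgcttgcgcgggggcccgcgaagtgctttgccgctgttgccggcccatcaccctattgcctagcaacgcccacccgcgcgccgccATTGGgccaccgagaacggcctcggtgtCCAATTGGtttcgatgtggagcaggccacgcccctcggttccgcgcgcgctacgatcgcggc
Lss: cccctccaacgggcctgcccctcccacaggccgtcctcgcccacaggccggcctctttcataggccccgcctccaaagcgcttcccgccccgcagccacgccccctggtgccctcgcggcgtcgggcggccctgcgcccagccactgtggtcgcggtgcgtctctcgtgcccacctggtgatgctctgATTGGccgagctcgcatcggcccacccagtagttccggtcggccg
Insig1: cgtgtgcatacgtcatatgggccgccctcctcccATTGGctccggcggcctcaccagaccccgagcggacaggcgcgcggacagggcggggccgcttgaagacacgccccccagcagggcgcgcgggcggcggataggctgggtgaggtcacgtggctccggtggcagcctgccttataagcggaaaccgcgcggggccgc
Hmgcs1 has the full element and 3 NF-Y boxes, Srebf2 the shorter element and 1 box, Fasn a box on each strand that overlap and 1 more, and Lss and Insig1 1 box each.

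**Figure D3:**
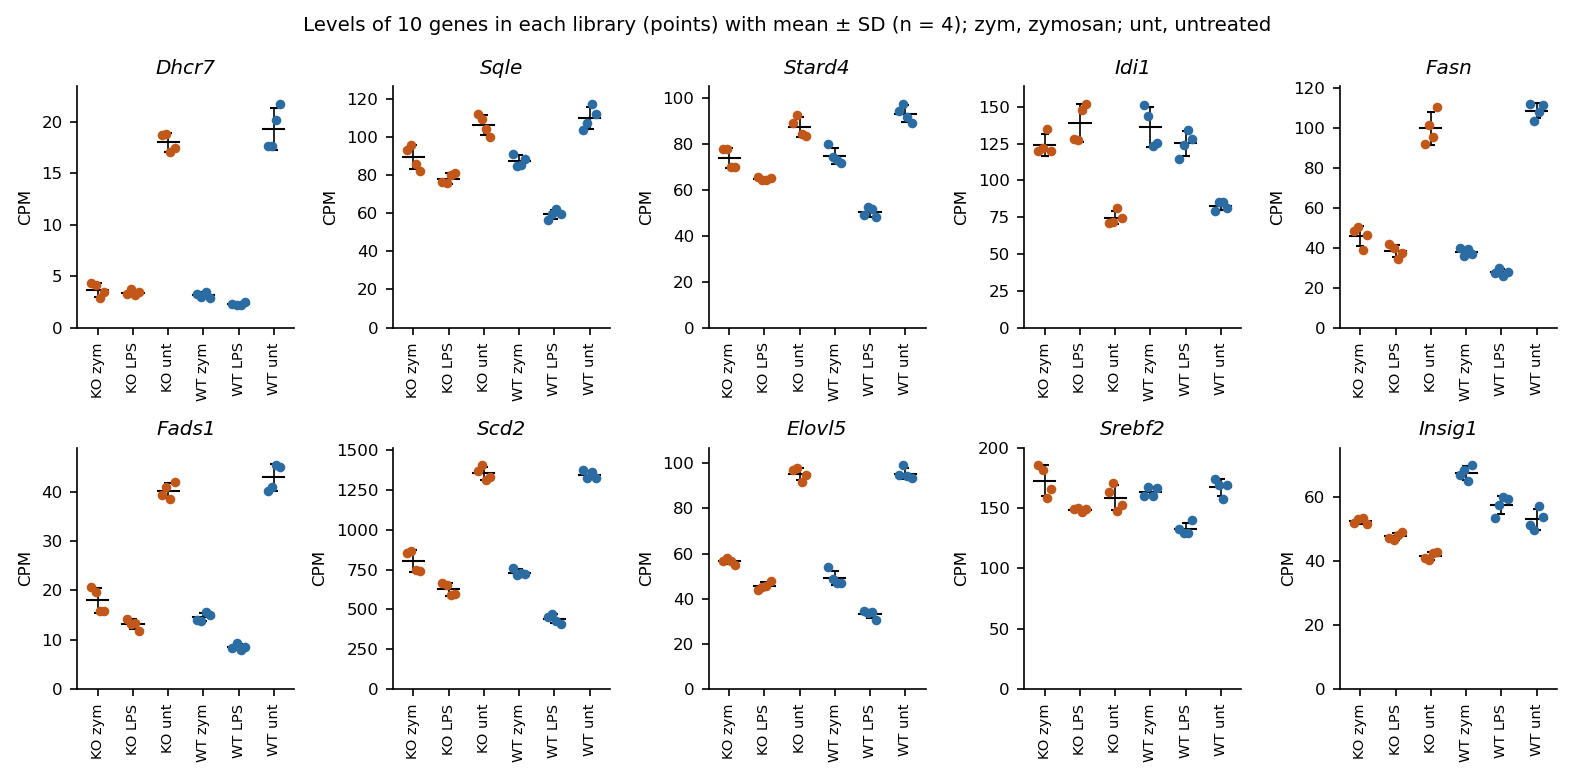
CPM of 10 members in each of the 24 libraries (points), with the mean ± SD of the 4 libraries of each group (bars), KO-labelled libraries in orange and WT in blue. Dhcr7, Fasn, Fads1, Scd2 and Elovl5 are high in the untreated groups of both genotypes, Idi1 is high in the stimulated ones, the WT LPS libraries of Sqle, Stard4 and Scd2 lie below all others, and Insig1 is lower in each KO group than in the WT group of the same treatment.

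The genotype comparisons were made within each condition. Markers of eosinophils also separated the genotypes, summing to 25.3 to 37.0 CPM in KO-labelled and 747.3 to 1197 CPM in WT libraries over all treatments. In untreated cells 0 members were called higher in KO-labelled than in WT libraries, against 4.31% of all tested genes, and 6 were called lower, against 5.64% of all tested genes. The 6 were 5 of 19 sterol genes (median of the branch -0.10) and Insig1; none of the 10 fatty acid genes was called (median -0.05), and the median of all tested genes was 0.00. Cyp51, the lanosterol demethylase, had 62.4, 60.1, 63.7 and 66.5 CPM in KO-labelled and 76.0, 75.8, 82.3 and 78.0 CPM in WT untreated libraries, without overlap, a difference of -0.31 ± 0.05 (edgeR adjusted p = 0.000222). Pmvk differed by -0.26 ± 0.07, Hsd17b7 by -0.23 ± 0.07, Lss by -0.22 ± 0.07 and Hmgcs1 by -0.21 ± 0.05, with edgeR adjusted p = 0.0211, 0.0315, 0.0264 and 0.00342. Hsd17b7 overlapped between genotypes, with 14.9, 14.7, 16.9 and 16.7 CPM in KO-labelled and 18.1, 16.8, 20.6 and 18.9 CPM in WT libraries. The count of 6 fell to 3 without WT untreated replicate 3, which ended the calls of Pmvk, Lss and Hsd17b7, and to 1 (Insig1) with summed replicate pairs, where 300 of 15378 genes were called lower, while it was 13 within replicates 3 and 4 alone, against 701 of 14217 genes.

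With zymosan 5 of 10 fatty acid genes were called higher in KO-labelled libraries, and no sterol gene or regulator, against 10.6% of all tested genes. Lower calls went to 3 of 19 sterol genes and 1 of 5 regulators, against 11.4% of all tested genes. The median was 0.17 for the fatty acid genes, -0.07 for the sterol genes and 0.00 for all tested genes. The higher ones were Fads1 by 0.31 ± 0.08, Fasn by 0.28 ± 0.07, Acaca by 0.27 ± 0.06, Acly by 0.20 ± 0.04 and Elovl5 by 0.20 ± 0.04 (edgeR adjusted p = 0.00578, 0.00529, 0.000812, 0.00165 and 0.00152). Acaca had 43.6, 43.0, 41.0 and 41.3 CPM in KO-labelled and 33.4, 33.2, 37.8 and 35.3 CPM in WT zymosan libraries, which did not overlap. All 5 calls were lost with summed replicate pairs (adjusted p 0.0637 to 0.156), and 11 members were called higher within replicates 1 and 2, against 2218 of 14324 genes, and 3 within replicates 3 and 4, against 1107 of 14217 genes. On the summed pairs 394 of 15378 genes were called higher. The lower ones were Pmvk by -0.51 ± 0.07, Insig1 by -0.36 ± 0.04, Cyp51 by -0.24 ± 0.05 and Hmgcs1 by -0.13 ± 0.05; the Hmgcs1 call, with an edgeR adjusted p of 0.048, was lost without any 1 of 7 of the 8 zymosan libraries (0.0659 to 0.136).

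With LPS the genotypes differed in most members. In KO-labelled libraries 12 of 19 sterol genes, 8 of 10 fatty acid genes and 1 of 5 regulators were called higher, 21 members in all, against 15.6% of all tested genes. No sterol or fatty acid gene and 1 regulator were called lower, against 18.2% of all tested genes. The median was 0.40 for the fatty acid genes, 0.19 for the sterol genes, 0.21 for all members and 0.01 for all tested genes. The largest differences were those of Fads1 by 0.63 ± 0.08, Scd2 by 0.50 ± 0.05 and Fasn by 0.47 ± 0.07 in the fatty acid branch (edgeR adjusted p = 2.74e-06, 1.47e-07 and 2.23e-05). In the sterol branch they were Dhcr7 by 0.56 ± 0.12, Sc5d by 0.45 ± 0.06, Acat2 by 0.44 ± 0.08 and Sqle by 0.40 ± 0.05 (edgeR adjusted p = 0.00062, 8.96e-07, 0.000113 and 1.65e-06).

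Sc5d had 48.2, 49.4, 50.2 and 50.9 CPM in KO-labelled and 37.4, 38.4, 34.4 and 35.2 CPM in WT LPS libraries, without overlap. Its other groups were alike between genotypes, with 54.6, 53.5, 52.1 and 50.9 CPM in KO-labelled and 52.2, 54.1, 54.4 and 48.2 CPM in WT untreated libraries. Elovl5 had 43.9, 45.4, 45.7 and 47.7 CPM in KO-labelled and 34.6, 33.6, 33.99 and 30.5 CPM in WT LPS libraries, against 96.9, 97.8, 91.7 and 94.98 CPM in KO-labelled and 94.9, 99.0, 94.2 and 93.2 CPM in WT untreated libraries. For both genes the genotypes were separate with LPS and overlapped untreated. With summed replicate pairs, where 841 of 15378 genes were called higher, 11 of the 21 calls were kept: Acaca, Acat2, Acly, Dhcr7, Elovl5, Fads1, Fasn, Sc5d, Scd2, Sqle and Stard4.

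Insig1 ran against this. It had 51.8, 53.3, 53.5 and 51.7 CPM in KO-labelled zymosan libraries, 47.3, 46.6, 48.2 and 49.0 CPM with LPS and 41.0, 40.2, 42.4 and 42.7 CPM untreated. WT libraries had 67.0, 68.4, 65.0 and 69.9 CPM with zymosan, 53.4, 57.4, 60.0 and 59.3 CPM with LPS and 51.5, 49.6, 57.3 and 53.7 CPM untreated. In each treatment the highest KO-labelled value was below the lowest WT value. The difference was -0.36 ± 0.04 with zymosan, -0.27 ± 0.04 with LPS and -0.35 ± 0.04 untreated (edgeR adjusted p = 7.67e-07, 3.27e-05 and 1.79e-06). Srebf2 was higher in KO-labelled LPS libraries by 0.16 ± 0.05 (edgeR adjusted p = 0.0126), a call lost with summed replicate pairs (adjusted p 0.174), and Srebf1, Scap and Insig2 were not called in any genotype comparison.

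**Figure D4:**
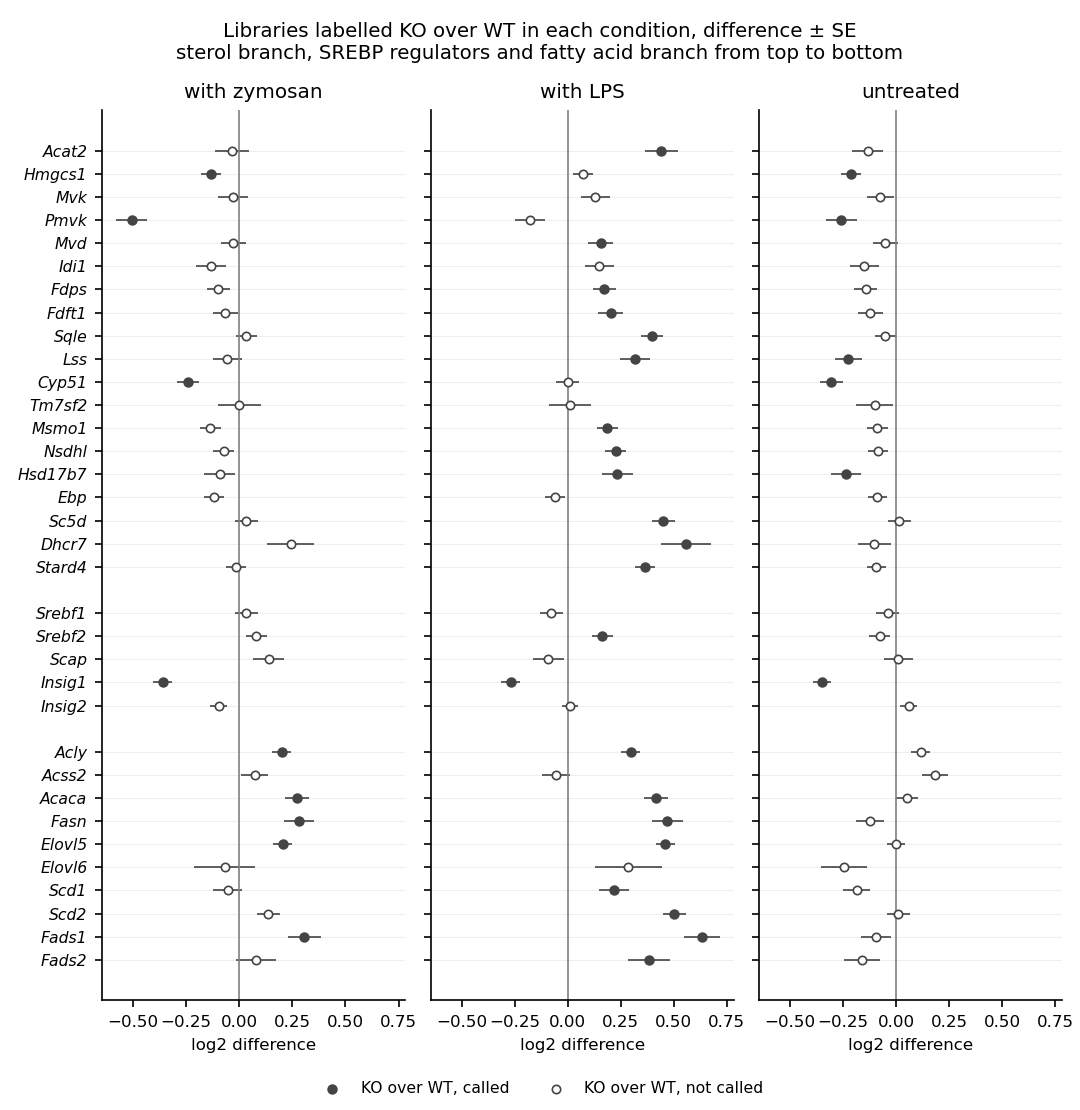
Log2 difference ± SE of KO-labelled over WT libraries for each member with zymosan, with LPS and untreated (left to right), 4 libraries a group, filled symbols called. In the LPS panel 21 members lie right of 0 with filled symbols, in the untreated panel 6 lie left of 0 with filled symbols, and Insig1 is filled and left of 0 in each panel.

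Whether the change with a stimulus itself differed between genotypes was tested as an interaction, the log2 change in KO-labelled cells minus that in WT cells. For LPS it was called positive in 13 of 19 sterol genes, 7 of 10 fatty acid genes and 1 of 5 regulators (Srebf2), 21 members in all, against 4.61% of all tested genes, and negative in 0, against 5.84% of all tested genes. The median was 0.48 for the fatty acid genes, 0.31 for the sterol genes, -0.04 for the regulators and 0.00 for all tested genes. Among these were genes that fell less in KO-labelled than in WT cells: Fads1 changed by -1.61 ± 0.08 in KO-labelled and -2.33 ± 0.08 in WT cells, Dhcr7 by -2.40 ± 0.09 and -3.06 ± 0.10, Fasn by -1.38 ± 0.07 and -1.97 ± 0.07, and Scd2 by -1.11 ± 0.06 and -1.60 ± 0.06. The interaction was 0.73 ± 0.11 for Fads1, 0.66 ± 0.14 for Dhcr7, 0.59 ± 0.10 for Fasn and 0.49 ± 0.08 for Scd2 (edgeR adjusted p = 0.00021, 0.00388, 0.000587 and 0.000333). In the sterol branch it was 0.57 ± 0.11 for Acat2, 0.54 ± 0.10 for Lss, 0.46 ± 0.07 for Stard4 and 0.45 ± 0.07 for Sqle (edgeR adjusted p = 0.00146, 0.000935, 0.000158 and 0.000361). Acss2, at -0.24 ± 0.09, and Elovl6, at 0.53 ± 0.19, were not called (edgeR adjusted p = 0.0956 and 0.0751). Of the 13 sterol genes, 11 were also called higher in KO-labelled than in WT libraries with LPS, and Cyp51 and Hmgcs1 were not. Cyp51 had means of 66.9 CPM in KO-labelled and 66.8 CPM in WT LPS libraries, and 63.2 and 78.1 CPM untreated. Those of Hmgcs1 were 152.3 and 144.8 CPM with LPS, and 119.9 and 139 CPM untreated.

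These interactions had the same sign in both sets of replicates for most members. Within replicates 1 and 2, and again within replicates 3 and 4, the value was positive for 28 of the 34 members, which included 17 of 19 sterol and 9 of 10 fatty acid genes. Both sets are libraries of the full fit, so their likeness is no separate test of its calls. The share of all tested genes positive in both sets was not counted. The median over the sterol genes was 0.25 within replicates 1 and 2 and 0.41 within replicates 3 and 4, and over the fatty acid genes it was 0.45 and 0.51. Members called positive numbered 21 in the first set, against 1379 of 14324 genes, and 23 in the second, against 653 of 14217 genes. On summed pairs, which leave 2 samples a group, 0 members were called and the lowest adjusted p was 0.131; of all 15378 genes 2 were called positive and 3 negative, so a count of 0 says little about the members. Relative to library totals the median interaction of all tested genes was 0.11, and 27 members were called positive, against 1649 of 14188 genes.

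**Figure D5:**
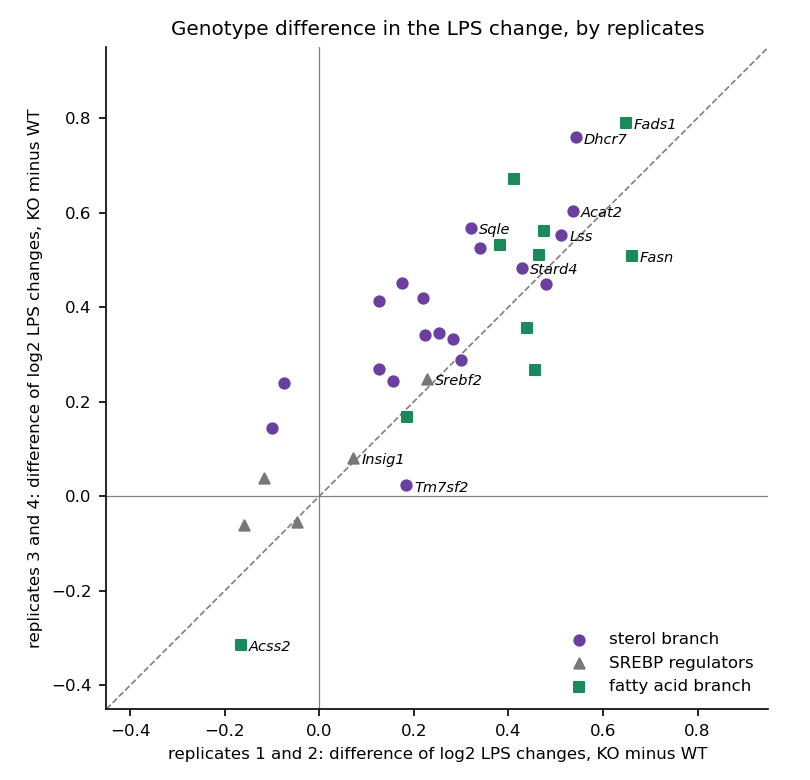
Interaction of genotype and LPS for each member (log2 change with LPS in KO-labelled minus that in WT libraries), computed from replicates 1 and 2 (horizontal axis) and from replicates 3 and 4 (vertical axis), with sterol genes as circles, regulators as triangles, fatty acid genes as squares and a dashed line of equal values. Positive on both axes are 28 of the 34 members, with Fads1 and Dhcr7 farthest up and Acss2 at the lower left.

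For zymosan the interaction was called positive in 2 of 10 fatty acid genes, Fasn at 0.41 ± 0.10 and Fads1 at 0.40 ± 0.10 (edgeR adjusted p = 0.0302 and 0.0473), against 0.973% of all tested genes, and negative in 0 members, against 0.846%. The median was 0.19 for the fatty acid genes, 0.05 for the sterol genes and -0.01 for all tested genes. Leaving out 1 library of these groups ended the Fasn call in 8 and the Fads1 call in 11 of 16 fits (for at least 1 of them, each of the 4 WT untreated replicates, WT zymosan replicates 1, 2 and 4, KO-labelled untreated replicates 1, 2 and 3 and KO-labelled zymosan replicates 1 and 2), and both calls were lost with summed pairs, where their adjusted p was 0.656 and 0.858 and 0 of all 15378 genes were called. The difference between genotypes in the zymosan over LPS change was tested after the data had been seen. It was called positive in 0 members, against 0.839% of all tested genes, and negative in 8, against 0.634%, with a median of -0.27 over the members and -0.01 over all tested genes. The 8 were Acat2, Sc5d, Stard4, Sqle, Msmo1, Nsdhl, Scd2 and Elovl5, from -0.47 ± 0.11 for Acat2 to -0.26 ± 0.06 for Elovl5, and their number was 0 with summed pairs, as was that of all genes. It was 3 without WT zymosan replicate 1, WT LPS replicate 4 or KO-labelled zymosan replicate 4, 4 without WT zymosan replicate 2, KO-labelled zymosan replicate 3 or KO-labelled LPS replicate 1 or 2, and 5 without WT LPS replicate 1 or 3.

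Other features of the libraries moved with these results. Of 10 proliferation genes, 8 were called lower and 1 (Mki67) higher with zymosan, and 9 lower with LPS, in each genotype, with medians of -0.89 and -1.12 in KO-labelled cells and -1.28 and -1.57 in WT cells. Their summed level was 500.5 to 532.9 CPM with zymosan, 385.7 to 414.5 CPM with LPS and 569.2 to 601.3 CPM untreated in KO-labelled libraries, against 429.0 to 489.2, 379.9 to 395.5 and 550.6 to 565.2 CPM in WT libraries. Between genotypes 6 of them were called higher in KO-labelled libraries with zymosan, 7 higher and 1 lower with LPS and 0 untreated, and 5 had a positive interaction with LPS. Macrophage markers summed to 1964 to 2205 CPM in KO-labelled and 2618 to 2730 CPM in WT zymosan libraries, with 4 of 8 called lower and 1 higher, and to 1696 to 1765 CPM in KO-labelled and 2454 to 2547 CPM in WT LPS libraries, with 7 of 8 called lower and 1 higher. Untreated, these sums overlapped, at 1648 to 1865 CPM in KO-labelled and 1712 to 1811 CPM in WT libraries. In WT cells both stimulated ranges lay above the untreated one. In KO-labelled cells the zymosan range lay above the untreated one and the LPS range overlapped it. Of the 8 markers in WT cells, 4 were called higher and 4 lower with zymosan, against 34.3% and 35.9% of all tested genes. With LPS 4 were higher and 3 lower, against 35.9% and 39.7%. In KO-labelled cells 4 were higher and 4 lower with zymosan, against 31.6% and 35.2%, and likewise with LPS, against 34.4% and 37.4%.

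The 8 eosinophil markers summed to 25.3 to 37.0 CPM in all KO-labelled libraries and to 747.3 to 1197 CPM in all WT libraries, and of the 7 tested 6 were called lower with zymosan, 7 with LPS and 6 untreated; Epx, an eosinophil granule peroxidase, was at 0.555 to 1.40 CPM in KO-labelled and 147 to 213 CPM in WT libraries. Mast cell and basophil markers summed to 39.4 to 45.8 CPM in KO-labelled and 25.8 to 29.7 CPM in WT LPS libraries. Mcpt4 was at 0 in all 24, and of the 5 tested 1 was called higher and 0 lower. Neutrophil markers summed to 1345 to 1502 CPM in KO-labelled and 1022 to 1088 CPM in WT LPS libraries. Of these 8 markers 4 were called higher and 2 lower. Among all tested genes 15.6% were called higher and 18.2% lower with LPS. With zymosan and untreated, the sums of both lists overlapped between genotypes. Lymphocyte markers summed to no more than 1.81 CPM in any library. Within WT cells the eosinophil sums overlapped between treatments, at 846.1 to 1197 CPM with zymosan, 882.5 to 953.5 CPM with LPS and 747.3 to 1053 CPM untreated. The part of these markers in the genotype differences of the sterol and fatty acid genes was not tested.

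Other genes of the same pathways were taken from further lists of pathway members. The counts of both lists stand beside the shares of all tested genes. In KO-labelled cells 31.6% of these were called higher and 35.2% lower with zymosan, and 34.4% and 37.4% with LPS. In WT cells the shares were 34.3% and 35.9% with zymosan and 35.9% and 39.7% with LPS. Of 9 tested genes in sterol synthesis, uptake and storage, 4 were called higher and 4 lower with zymosan and 4 higher and 4 lower with LPS in KO-labelled cells, and 4 higher and 4 lower with zymosan and 3 higher and 6 lower with LPS in WT cells. Mylip, which targets the LDL receptor for degradation, rose by 0.63 ± 0.06 with zymosan and 0.81 ± 0.06 with LPS in KO-labelled and 0.73 ± 0.06 and 1.17 ± 0.06 in WT cells. Its interaction with LPS was -0.36 ± 0.09 (edgeR adjusted p = 0.00914).

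Of 17 tested genes in fatty acid activation, elongation and lipid assembly, 7 were called higher and 8 lower with zymosan and 6 higher and 9 lower with LPS in KO-labelled cells, and 6 higher and 9 lower with zymosan and 4 higher and 8 lower with LPS in WT cells. Lpin1, a phosphatidate phosphatase of triglyceride synthesis, changed by -1.53 ± 0.09 with zymosan and -2.58 ± 0.09 with LPS in WT cells, Elovl7, an elongase, by -1.48 ± 0.11 and -2.41 ± 0.12, and Hacd3, a dehydratase of the elongation cycle, by -1.36 ± 0.06 and -1.46 ± 0.06. Acsl1 and Acsl3 both activate long-chain fatty acids to acyl-CoA, and they moved in opposite directions. Acsl1 rose by 2.34 ± 0.12 with zymosan and 2.41 ± 0.12 with LPS in KO-labelled cells and by 2.60 ± 0.12 and 2.99 ± 0.12 in WT cells, while Acsl3 fell by the log2 values -0.98 ± 0.07 and -1.28 ± 0.07 in KO-labelled and -1.11 ± 0.07 and -1.75 ± 0.07 in WT cells. The interactions with LPS were -0.59 ± 0.16 for Acsl1 and 0.47 ± 0.10 for Acsl3 (edgeR adjusted p = 0.0162 and 0.00525). In the genotype comparison with LPS 3 of the 9 sterol-list genes were higher and 1 lower in KO-labelled libraries. Of the 17 fatty-acid-list genes 4 were higher and 2 lower. Among all tested genes 15.6% were called higher and 18.2% lower.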

How the data were processed

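RNA from 24 libraries (6 groups of 4) was sequenced as mRNA libraries, per the labels. The authors deposited 1 table of whole-number counts per Ensembl gene; Bowtie2, RSEM 1.2.31, DESeq2 and build mm10 are named in the submitters' processing notes, without role or order, and strandedness is not given in the sources used here. The plan had assumed decimal estimated counts, but the deposited counts were whole and were used unchanged. GENCODE M21 named 37570 of 38887 genes (96.6%). Totals were 32223256 to 46927434 counts, and the lowest count of a member was 46 (Elovl6), so counting error weighs most on that gene.

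Genes passing filterByExpr (14188) entered 1 edgeR 4.0.16 quasi-likelihood model (R 4.3.3) with a mean per group. It had TMM factors of 0.880 to 1.19 and a common biological coefficient of variation of 0.0686. A prior count of 2 was set where replicates were compared on log2 CPM, and the heat map took log2 CPM without it. P-values were adjusted by Benjamini-Hochberg over all tested genes, and a call needs an adjusted p under 0.05. The members and lists were chosen with earlier results of these data known. Values in every library are given for the members with the largest called changes (up to 4 sterol, 3 fatty acid and 2 regulator genes a comparison), for Srebf1, Srebf2, Insig1 and Insig2, and for members running against their branch; up to 4 called genes of each further pathway list are named. Elovl5 and the remaining members were named beyond this rule, with their values known. Some genes of the further lists are not reported here.

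The replicate numbers come from the labels, which do not say what they mark. Same-number libraries correlated, after removal of group means, with every r over 0.1 in the zymosan over untreated comparisons (0.151 to 0.247 in WT, 0.125 to 0.205 in KO-labelled libraries), so these were also fitted with the number as a block; there the block changed no member's call. Alternatives were DESeq2 1.42.0 and its size factors, no filter, library totals without TMM, only the groups compared, the replicate block, summed pairs, each pair of replicates alone, a pair term and leaving out each library. The edgeR fit of zymosan over untreated in WT cells was also run on simulated counts. These had independent replicates and fewer changed genes than were called here. Interactions, summed pairs and the likeness of replicates were not simulated. Promoter sequence is from RefSeq on GRCm38.p6.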

Additional observations from a re-analysis of the deposited data

Results flagged for a closer look

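Dixon's criterion sets 1 library apart by chance in about 1 in 20 tests of independent replicates. The replicates here resembled each other in pairs and the genes share libraries, so that rate cannot be set against the count. A single library stood apart from the other 3 of its group by this criterion in 5 of 204 tests (34 genes in 6 groups). Of these, 3 were in KO-labelled zymosan replicate 3: Mvd at 47.1 CPM against 53.5 to 54.5 CPM in the other 3, Idi1 at 135 CPM against 120.0 to 122 CPM, and Srebf1 at 78.5 CPM against 88.6 to 90.3 CPM. Msmo1 was at 80.5 CPM in KO-labelled untreated replicate 4 against 87.5 to 88.9 CPM, and Fads2 at 4.61 CPM in WT LPS replicate 1 against 5.0 to 5.06 CPM. The Mvd fall with zymosan in KO-labelled cells lost its call without that replicate 3 (edgeR adjusted p = 0.104).

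The change with a stimulus differed between genotypes, by the interaction term, in the following members. With zymosan these were Fasn at 0.41 and Fads1 at 0.40 on the log2 scale. With LPS the fatty acid genes were Fads1 at 0.73, Fasn at 0.59, Fads2 at 0.54, Scd2 at 0.49, Elovl5 at 0.46, Scd1 at 0.40 and Acaca at 0.37. The sterol genes were Dhcr7 at 0.66, Acat2 at 0.57, Lss at 0.54, Hsd17b7 at 0.47, Stard4 at 0.46, Sqle at 0.45, Sc5d at 0.44, Fdps at 0.32, Fdft1 at 0.32, Nsdhl at 0.31, Cyp51 at 0.31, Hmgcs1 at 0.29 and Msmo1 at 0.28, and the regulator was Srebf2 at 0.24. The Srebf2 call with LPS was lost in 8 of 16 fits that leave out 1 library (adjusted p 0.0512 to 0.0673) and with no filter on low counts (0.0531), and in summed pairs of replicates (0.401).

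For zymosan over LPS the interaction was negative: Acat2 at -0.47, Sc5d at -0.42, Stard4 at -0.38, Sqle at -0.36, Scd2 at -0.36, Msmo1 at -0.32, Nsdhl at -0.30 and Elovl5 at -0.26. This comparison shares its LPS libraries with the interaction for LPS, so the values are not independent of those above.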

How the results depend on the processing

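For single members, 3914 results of fits that leave out 1 library stayed uncalled or stayed calls in the same direction. Of the rest, 41 became calls and 125 lost the call. In the other settings 3766 stayed so, 161 became calls, 128 lost the call and 25 changed sign. A sign change was counted only for results called before or after it, and the direction of results that stayed uncalled was not checked. The cause of these shifts was not tested, except that summed pairs leave fewer samples. The number of all genes called also changed with the setting. Most member counts below stand without it, so a changed count is not by itself a result about the members. For summed pairs and each set of replicates, counts of all genes are given with several of the results above.

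All 25 sign changes of results called before or after the change came with library totals in place of TMM. Uncalled results also changed sign in other settings and are not among the 25. Between untreated genotypes, only 4 of the 34 members were positive and 17 negative in both sets of replicates. The 25 were as follows. With zymosan in KO-labelled cells they were Pmvk -0.28, Fdft1 -0.15, Cyp51 -0.21, Msmo1 -0.091, Hsd17b7 -0.24, Srebf1 -0.26, Srebf2 -0.18 and Insig2 -0.074. With LPS in KO-labelled cells they were Cyp51 -0.20, Srebf1 -0.28, Insig1 -0.078 and Insig2 -0.145. With zymosan in WT cells they were Hmgcs1 -0.10, Pmvk -0.077, Fdft1 -0.26, Cyp51 -0.33, Msmo1 -0.091, Insig1 -4.79e-06 and Acss2 -0.26. With LPS in WT cells they were Hmgcs1 -0.32, Fdft1 -0.34, Msmo1 -0.35, Srebf1 -0.34, Insig1 -0.26 and Insig2 -0.20. On that scale higher calls went to 1 member with zymosan and 2 with LPS in KO-labelled cells, in place of 7 and 7, and to 1 with zymosan and 1 with LPS in WT cells, in place of 6 and 4; lower calls of zymosan over LPS in KO-labelled cells went to 6, in place of 3.

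The fit with replicate number as a block called 5 members lower in zymosan over LPS in KO-labelled cells in place of 3, and between genotypes 1 higher untreated in place of 0, 2 lower with LPS in place of 1 and 15 with a negative interaction for zymosan over LPS in place of 8. It ended no member's call. Only in the zymosan over untreated comparisons did the pairing by number correlate above 0.1 in every pair, and there other numbers of the same pair of replicates did so to a like degree (0.089 to 0.175 in WT, 0.14 to 0.296 in KO-labelled libraries). A term for replicates 1 and 2 against 3 and 4 gave 5, 1, 2 and 16 for those same counts.

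DESeq2 gave 5 lower members in zymosan over LPS in KO-labelled cells, against 2951 of 14188 genes. Between genotypes it gave 2 higher untreated, against 666 genes, and 2 lower with LPS, against 2670. Its size factors gave 5 and 2 for the first and last, against 3050 and 2694 genes. No filter left 1 positive interaction with zymosan in place of 2. Only the groups compared gave 1 lower in zymosan over LPS in WT cells in place of 2, 2 lower between genotypes with LPS, 1 positive interaction with zymosan and 5 negative ones for zymosan over LPS.

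Summed pairs gave 0 lower in zymosan over LPS in WT cells, 7 higher in zymosan over LPS in KO-labelled cells in place of 11, 1 lower between untreated genotypes, 0 higher and 2 lower between genotypes with zymosan in place of 5 and 4, 11 higher with LPS in place of 21, and 0 positive interactions with zymosan, 0 with LPS and 0 negative ones for zymosan over LPS. Replicates 1 and 2 alone gave 2 higher between untreated genotypes, and 11 higher and 7 lower with zymosan. Of all 14324 genes, 2218 were called higher with zymosan there. The same replicates gave 2 lower with LPS, 5 positive and 1 negative interactions with zymosan, and 1 positive and 14 negative ones for zymosan over LPS. Replicates 3 and 4 alone gave 1 lower in zymosan over LPS in WT cells, and 7 higher and 7 lower in KO-labelled cells. Between genotypes they gave 1 higher and 13 lower untreated and 3 higher with zymosan. Of all 14217 genes, 701 were lower untreated and 1107 higher with zymosan. These replicates gave 0 positive interactions with zymosan and 1 negative one with LPS.

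Leaving out 1 library at a time gave 1 to 2 lower members in zymosan over LPS in WT cells, 0 to 1 higher and 3 to 6 lower between untreated genotypes, 1 to 2 lower between genotypes with LPS, 0 to 2 positive interactions with zymosan, 0 to 1 negative ones with LPS and 3 to 10 negative ones for zymosan over LPS. The count of 2 lower between genotypes with LPS came without KO-labelled LPS replicate 4, and the higher calls between untreated genotypes without KO-labelled untreated replicate 1 or 2. Depth limits the members little except at the low end, where Elovl6 had 46 counts in 1 library; small differences are limited by the spread between replicates.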
